A study of Mus musculus with 14 samples.

Results

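The genes described here encode the glycosyltransferases and sulfotransferases that build mucin and related glycans, in mouse duodenal tumors and normal duodenum. They were chosen by symbol: every array row with a single gene symbol of the Galnt, B3gnt, B3galt, B4galt, B4galnt, Fut, St3gal, St6gal, St6galnac, St8sia, Gcnt or Chst families followed by a number, together with A4gnt, C1galt1 and C1galt1c1. The rule used no measured value, except that the brightest row was kept for the 2 genes with several rows. It was set with earlier results of these data known. It gave 89 of the 19938 genes on the array, and all 89 entered the fit because no filter on low values was applied. B4galt2 was left out because its row carries several symbols.

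The series compared tumors that arise in mice lacking Lrig1, a membrane protein that restrains ErbB receptors and marks intestinal stem cells, with normal duodenum. The tumor group held 6 arrays of duodenal tumor from mice of genotype Lrig1-CreERT2/CreERT2 (Lrig1-/-), in which the CreERT2 cassette sits in both copies of the gene. The adjacent group held 5 arrays of normal duodenal tissue from 5 of those 6 mice, and the wildtype group held 3 arrays of normal duodenum from separate wildtype mice. All 9 mice had a mixed background of 129S7/SvEv and C57/BL6 and are labelled as matched for age, with no age given, and all tissue is labelled as proximal duodenum. Values are log2 array signal, so a difference of 1 is a doubling of signal.

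Mucin glycans are built in the Golgi, one sugar at a time. Galnt enzymes attach N-acetylgalactosamine to serine or threonine, C1galt1 and the Gcnt enzymes form the core and its branches, and B3gnt, B3galt and B4galt enzymes lengthen the chain. Fucose, sialic acid, sulfate or a terminal N-acetylglucosamine then cap it, and the caps differ between the mucous cells of stomach glands and Brunner's glands and the goblet cells and enterocytes of the intestine.

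Lrig1 averaged 8.07 ± 0.32 (SD, n = 6) in tumors, 7.20 ± 0.17 (n = 5) in adjacent tissue and 9.03 ± 0.71 (n = 3) in wildtype duodenum, with all 5 adjacent arrays below all 3 wildtype arrays. Transcripts of pancreatic acinar cells were high in 4 of the 8 non-tumor arrays, where the mean of 10 such genes was 13.46 to 14.19, against 7.27 to 7.46 in the other 4 and 7.12 to 10 in tumors. These 4 arrays are adjacent replicates 1 and 2 and wildtype replicates 1 and 3. Wildtype replicate 1 also carried stomach-type mucous genes: the mean of the surface (pit) cell markers was 12.60 there and 7.26 and 7.86 in the other wildtype arrays. Normal tissue is labelled as epithelium, and the mean of 6 epithelial markers was 12.83 to 13.19 in tumors, 12.38 to 12.62 in adjacent tissue and 12.51 to 12.89 in wildtype duodenum. If only normal tissue was taken as epithelium, that difference cannot be told apart from tumor status. In RNA from several cell types together, fewer cells of a type and less RNA per cell cannot be told apart either.

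Between tumors and adjacent tissue, 29 of the 89 genes rose and 12 fell at an adjusted p of 0.05, the limma test with mouse as a random block and Benjamini-Hochberg adjustment over all 19938 genes that is used throughout. That is 32.6% risen against a background of 19.1% of all genes, and 13.5% fallen against 12.6%. At a stricter threshold, 14 of the 89 rose by at least 2-fold against 3.3% of all genes, and 1 fell by as much against 3.07%. Tumor and adjacent arrays did not overlap at all for 24 of the 89, against 17.2% of all genes, with 20 higher in tumors (background 10.3%) and 4 lower (background 6.84%). The median log2 fold change was 0.07 over the 89 and 0.04 over all genes, so the middle of the group stood near the middle of the array. In 27 of the 29 risen genes the tumor was higher in all 5 mice that gave both tissues. In 10 of the 12 fallen genes it was lower in all 5. The same arrays made the calls, so these counts are not separate support. Restricted to the 2 adjacent arrays and the wildtype arrays that carry acinar transcripts, 14 rose and 5 fell, beside 5.97% and 4.97% of all genes. Without those arrays 27 rose and 12 fell, beside 16.6% and 13.6% of all genes.

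**Figure D1:**
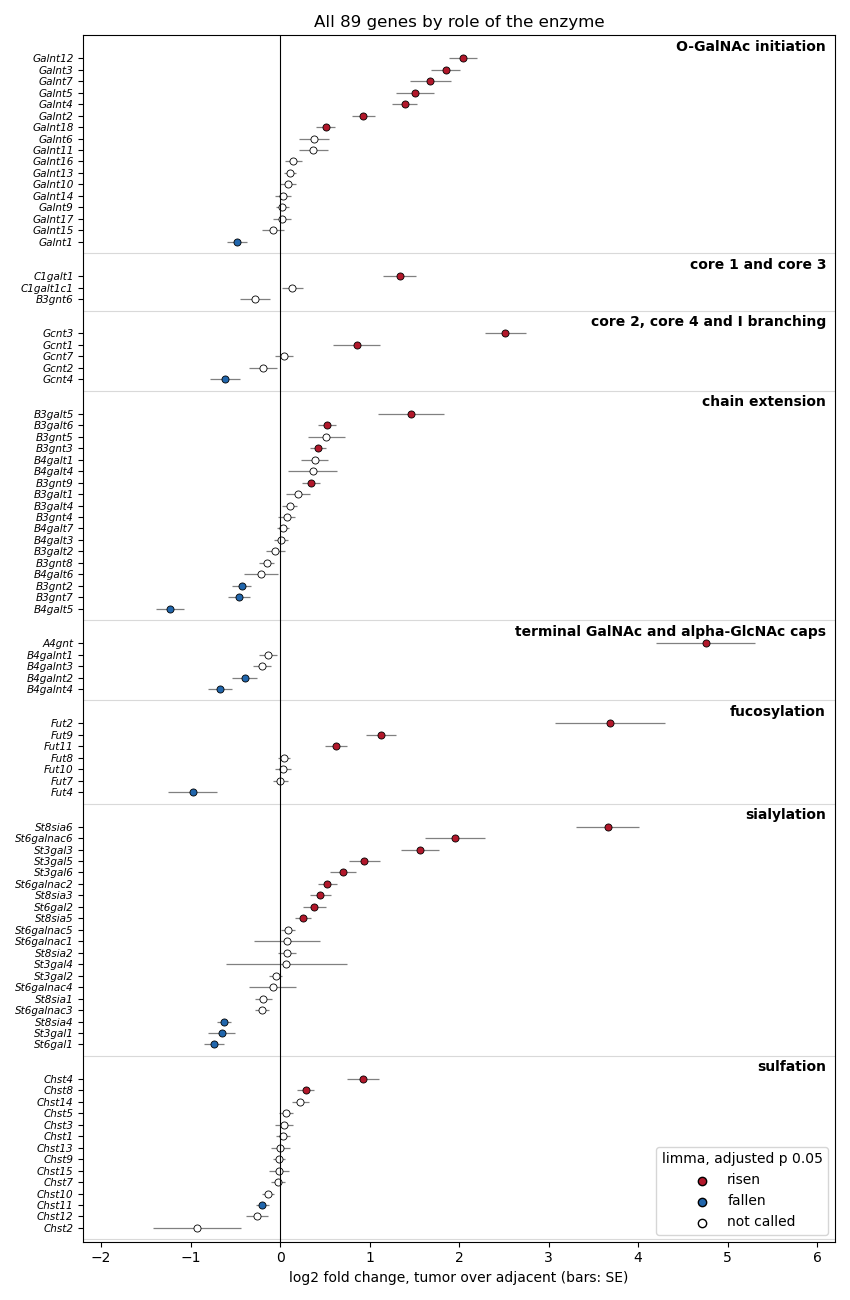
Log2 fold change of signal in tumors over adjacent tissue for all 89 genes, grouped by role, with the SE of the limma fit as a horizontal bar. Red points rose and blue points fell at an adjusted p of 0.05, and white points were not called. The 29 red points reach 4.75 at A4gnt, and the 12 blue points reach -1.23 at B4galt5.

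The largest rise belonged to A4gnt (transcript cluster 10588132), which caps mucin side chains with alpha-linked N-acetylglucosamine in gastric gland mucous cells and in Brunner's glands. The A4gnt signal in tumors ran from 10.39 to 12.68 with a median of 11.06, in adjacent tissue it was 7.18, 6.85, 6.32, 6.55 and 6.61, and in wildtype duodenum it was 11.07, 6.56 and 7.07. Tumor and adjacent arrays were far apart, with every tumor above every adjacent array, while wildtype replicate 1 lay inside the tumor range. The log2 fold change over adjacent tissue was 4.75 ± 0.55 (SE), a 27.0-fold difference, with an adjusted p of 1.5e-05. Over wildtype the A4gnt difference was 3.15 ± 0.78 (adjusted p = 0.0151), and without wildtype replicate 1 it was 4.57 ± 0.50 (adjusted p = 4e-05). Among mice whose ID starts with F, where replicate 1 is the only wildtype array, it was 0.12. The mucous gland markers moved with A4gnt, with 7 of 8 risen and a mean of 12.12 to 12.79 in tumors, 8.19 to 9.70 in adjacent tissue and 11.70, 8.27 and 9.27 in wildtype duodenum. Their part in the A4gnt result was not tested.

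Promoter sequences are shown for 3 risen genes of different roles, 2 poor and 1 rich in CG pairs, each holding a match described below. They are the 250 bases before the start site, from RefSeq on GRCm38.p6, 5′ to 3′ on the gene's strand: A4gnt at chr9:99612252-99612501 (plus strand), St6galnac6 at chr2:32599459-32599708 (plus strand) and Galnt3 at chr2:66124794-66125043 (minus strand). Capitals mark matches to AGATAA, the letters of GATA factors, TGTTTAC, those of Fox factors, and GGGCGG, the GC box, searched on both strands.
A4gnt: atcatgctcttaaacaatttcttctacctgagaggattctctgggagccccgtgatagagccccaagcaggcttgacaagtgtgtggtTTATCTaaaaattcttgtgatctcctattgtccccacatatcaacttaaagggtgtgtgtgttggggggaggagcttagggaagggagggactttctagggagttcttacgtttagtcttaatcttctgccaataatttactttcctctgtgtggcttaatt
St6galnac6: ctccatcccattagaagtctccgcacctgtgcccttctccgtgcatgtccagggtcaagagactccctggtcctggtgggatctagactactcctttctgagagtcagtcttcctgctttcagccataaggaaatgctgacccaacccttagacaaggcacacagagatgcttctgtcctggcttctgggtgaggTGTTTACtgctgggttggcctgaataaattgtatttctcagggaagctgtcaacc
Galnt3: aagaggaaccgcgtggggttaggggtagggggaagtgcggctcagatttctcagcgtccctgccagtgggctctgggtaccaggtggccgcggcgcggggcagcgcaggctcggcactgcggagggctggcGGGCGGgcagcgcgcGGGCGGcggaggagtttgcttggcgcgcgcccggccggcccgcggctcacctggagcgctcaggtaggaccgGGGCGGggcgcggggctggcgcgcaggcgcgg
The A4gnt window holds 2 CG pairs and 1 AGATAA match on the opposite strand, 162 bases before the start, and the St6galnac6 window 2 CG pairs and 1 TGTTTAC match 55 bases before it. The Galnt3 window holds 34 CG pairs, against a median of 6 over 32851 windows of the same length, and 3 GGGCGG matches at 119, 104 and 32 bases before the start. Counting a gene once if any of its windows holds the letters, AGATAA lies in 11.4% of all 27025 genes, in 6 of the 67 genes of the 89 that have a window, in 2 of 18 risen genes and in 2 of 10 fallen genes. TGTTTAC lies in 3.54% of all genes, in 1 of those 67, in 1 of 18 risen genes and in 0 of 10 fallen genes. GGGCGG lies in 35.4% of all genes, in 46 of those 67 (68.7%), in 9 of 18 risen genes and in 7 of 10 fallen genes. Per single window the shares are 9.99%, 3.17% and 32.7%. A match is a description of letters only.

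Among the other terminal caps, both genes that changed were lower in tumors. B4galnt4, which adds N-acetylgalactosamine to N-acetylglucosamine to form a LacdiNAc end, ran from 6.95 to 7.08 in tumors with a median of 7.03, against 7.35, 7.27, 7.95, 7.95 and 7.94 in adjacent tissue and 7.15, 7.93 and 7.66 in wildtype duodenum. The 6 tumors lay within a narrow band below every normal array. The 4 normal arrays with acinar transcripts ran from 7.15 to 7.66, and the other 4 from 7.93 to 7.95. The B4galnt4 log2 fold change was -0.67 ± 0.13 over adjacent tissue (adjusted p = 0.00115) and -0.56 ± 0.19 over wildtype (adjusted p = 0.0613). With the acinar-carrying normal arrays alone the fall over adjacent tissue was not called (adjusted p = 0.185). The part of acinar transcripts in these values was not tested. B4galnt2, which makes the Sda antigen of the gut, fell by 0.40 ± 0.14 on the log2 scale against adjacent tissue (adjusted p = 0.0419), with tumors from 11.83 to 13 and adjacent arrays from 12.93 to 13.29. B4galnt1, the enzyme of ganglioside GM2, and B4galnt3 were not called, with log2 fold changes of -0.13 and -0.20.

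Of the 17 Galnt genes, whose enzymes start the O-glycan, 7 rose and 1 fell against adjacent tissue, with a median log2 fold change of 0.37. That is 41.2% and 5.88%, beside 19.1% and 12.6% of all genes. Against wildtype the same 7 rose and 0 fell, beside 9.65% and 4.48% of all genes. These comparisons share the 6 tumors, so their values are given side by side and not as separate support. Galnt12 (transcript cluster 10504763), a transferase expressed in the digestive tract, ran from 10.32 to 10.96 in tumors with a median of 10.62, against 8.80, 8.19, 8.74, 8.75 and 8.55 in adjacent tissue and 9.61, 8.73 and 8.62 in wildtype duodenum. No normal array reached the lowest tumor. The Galnt12 log2 fold change was 2.04 ± 0.16 over adjacent tissue (4.12-fold, adjusted p = 8.82e-07) and 1.65 ± 0.22 over wildtype (adjusted p = 0.000569). It was the smallest adjusted p of any of the 89 genes in either comparison.

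Galnt3, which also glycosylates the phosphate hormone FGF23, ran from 10.62 to 11.30 in tumors with a median of 10.94, against 9.14, 9.03, 9.17, 9.14 and 9.0 in adjacent tissue and 10.12, 8.88 and 8.87 in wildtype duodenum. The 5 adjacent arrays lay close together and all below the tumors. Galnt3 rose by 1.85 ± 0.16 over adjacent tissue (adjusted p = 1.79e-06) and by 1.65 ± 0.23 over wildtype (adjusted p = 0.000621). Galnt7, which prefers peptides that already carry N-acetylgalactosamine, ran from 11.47 to 12.44 in tumors with a median of 11.61, against 10.55, 9.98, 10.09, 10.01 and 9.67 in adjacent tissue and 11.37, 9.90 and 9.77 in wildtype duodenum. Wildtype replicate 1 came close to the lowest tumor. The Galnt7 log2 fold change was 1.68 ± 0.23 over adjacent tissue (adjusted p = 5.25e-05) and 1.38 ± 0.32 over wildtype (adjusted p = 0.0108).

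Galnt5 ran from 8.58 to 9.80 in tumors with a median of 8.84, against 7.54, 7.30, 7.58, 7.78 and 7.25 in adjacent tissue and 8.56, 7.18 and 7.16 in wildtype duodenum. Here wildtype replicate 1 fell just short of the lowest tumor, and the remaining normal arrays were well below. Galnt5 rose by 1.5 ± 0.21 over adjacent tissue (adjusted p = 7.33e-05) and by 1.34 ± 0.30 over wildtype (adjusted p = 0.00899). Galnt4, another enzyme that follows earlier Galnt action, was 11.29 to 11.78 in tumors, 9.84 to 10.20 in adjacent tissue and 9.87 to 11 in wildtype duodenum, and it rose by 1.39 ± 0.14 and 1.16 ± 0.20 over adjacent and wildtype tissue (adjusted p = 6.22e-06 and 0.00236). Galnt2 rose by 0.93 ± 0.13 over adjacent tissue, and Galnt18 by 0.51 ± 0.10 (adjusted p = 7.5e-05 and 0.00164). The exception was Galnt1, with tumors from 9.47 to 9.91 and a median of 9.64, against 10.09, 9.87, 10.34, 10.46 and 9.97 in adjacent tissue and 10.17, 10.16 and 9.65 in wildtype duodenum. The ranges touched, and Galnt1 fell by 0.49 ± 0.11 over adjacent tissue (adjusted p = 0.00412) with no call against wildtype (adjusted p = 0.228). Of the 9 Galnt genes not called, the brightest were Galnt6, Galnt10 and Galnt11, with log2 fold changes of 0.38, 0.09 and 0.37.

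**Figure D2:**
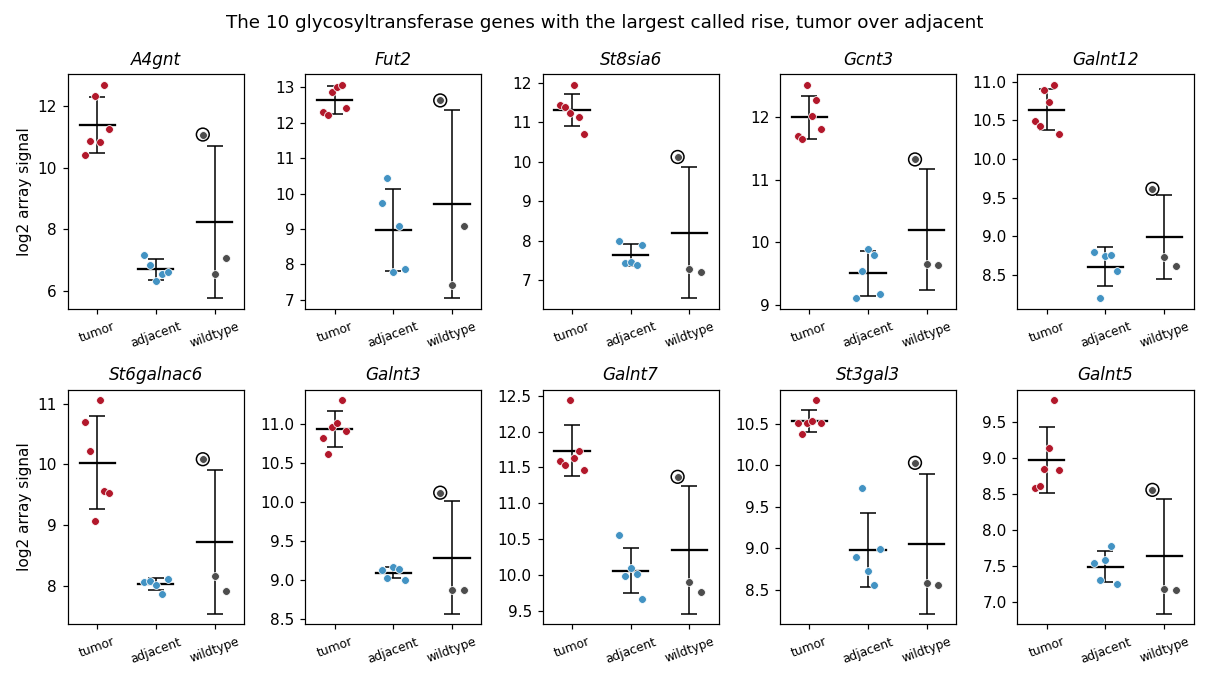
Log2 signal on each array for the 10 genes with the largest rise in tumors over adjacent tissue among those called, with tumors left, adjacent tissue in the middle and wildtype right. Points are arrays, thick bars are means and thin bars are SDs, and wildtype replicate 1 is circled. All tumors lie above all adjacent arrays in each panel, and the circled array is the highest wildtype array in each panel.

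Of the 3 core 1 and core 3 genes, 1 rose and 0 fell against adjacent tissue, beside 19.1% and 12.6% of all genes. C1galt1, the enzyme that adds galactose to form core 1, ran from 11.86 to 12.27 in tumors with a median of 12.16, against 11.18, 10.68, 10.91, 10.90 and 10.35 in adjacent tissue and 12.03, 10.59 and 10.63 in wildtype duodenum. Tumors were above all adjacent arrays, and wildtype replicate 1 lay within the tumor range. C1galt1 rose by 1.33 ± 0.18 over adjacent tissue (adjusted p = 6.36e-05) and by 1.06 ± 0.26 over wildtype (adjusted p = 0.0146). Its chaperone C1galt1c1, and B3gnt6, the core 3 enzyme of the normal colon, were not called, with log2 fold changes of 0.14 and -0.28.

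Gcnt3 (transcript cluster 10594758), which makes core 2, core 4 and I branches in mucin-secreting tissue, ran from 11.66 to 12.52 in tumors with a median of 11.92, against 9.11, 9.55, 9.89, 9.80 and 9.17 in adjacent tissue and 11.33, 9.65 and 9.64 in wildtype duodenum. All 6 tumors exceeded all 8 normal arrays. The Gcnt3 log2 fold change was 2.51 ± 0.23 over adjacent tissue (5.71-fold, adjusted p = 2.69e-06) and 1.79 ± 0.32 over wildtype (adjusted p = 0.00285). Gcnt1, a core 2 enzyme found in many tissues, rose by 0.86 ± 0.27 over adjacent tissue (adjusted p = 0.0227), with adjacent replicate 2 at 8.62 inside the tumor range of 7.73 to 9.0. Gcnt4, also a core 2 enzyme, ran from 9.35 to 10.45 in tumors with a median of 9.90, against 10.76, 10.11, 10.61, 10.54 and 10.38 in adjacent tissue and 10.40, 10.74 and 10.28 in wildtype duodenum. These ranges overlapped, and Gcnt4 fell by 0.62 ± 0.17 over adjacent tissue (adjusted p = 0.00975). Gcnt2 and Gcnt7 were not called, with log2 fold changes of -0.19 and 0.05.

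Chain extension was divided between increases and decreases: 4 of 18 genes rose and 3 fell against adjacent tissue, with a median of 0.09. These shares of 22.2% and 16.7% stand beside 19.1% and 12.6% of all genes. In the comparison with wildtype 1 rose and 1 fell (5.56% each), beside 9.65% and 4.48% of all genes. B4galt5, which makes lactosylceramide at the root of most gangliosides and also extends protein glycans, ran from 9.49 to 10.30 in tumors with a median of 10.19, against 10.86, 10.83, 11.55, 11.64 and 11.52 in adjacent tissue and 11.19, 11.64 and 10.97 in wildtype duodenum. Every normal array exceeded every tumor, with the 4 that carry acinar transcripts at 10.83 to 11.19 and the other 4 at 11.52 to 11.64. B4galt5 fell by 1.23 ± 0.16 over adjacent tissue (adjusted p = 4.15e-05) and by 1.20 ± 0.23 over wildtype (adjusted p = 0.00365), the one gene of the 89 that fell by at least 2-fold. B3gnt7, a keratan sulfate extender, ran from 8.5 to 9.24 in tumors with a median of 8.95, against 9.74, 9.37, 9.22, 9.20 and 9.37 in adjacent tissue and 9.58, 9.03 and 9.59 in wildtype duodenum. The upper tumors met the lower normal arrays, and the B3gnt7 log2 fold change over adjacent tissue was -0.46 ± 0.12 (adjusted p = 0.00961). B3gnt2, the main polylactosamine extender, ran from 7.90 to 8.20 in tumors with a median of 8.11, against 8.29, 8.12, 8.60, 8.83 and 8.73 in adjacent tissue and 8.11, 8.47 and 8.39 in wildtype duodenum. The adjacent arrays that carry acinar transcripts were the lowest of their group, and B3gnt2 fell by 0.43 ± 0.11 (adjusted p = 0.00681), with 1 of 5 mice higher in the tumor.

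B3galt5, which lays down type 1 chains, differed widely between tumors. Its values ran from 7.77 to 10.38 in tumors, against 7.48, 8.06, 7.26, 7.82 and 6.77 in adjacent tissue and 8.77, 6.75 and 7.5 in wildtype duodenum. The lower tumors overlapped with adjacent tissue, yet each of the 5 mice had more in its tumor, and the B3galt5 log2 fold change was 1.46 ± 0.37 (adjusted p = 0.00708). B3galt6, which works on the glycosaminoglycan linker, rose by 0.52 ± 0.10 over adjacent tissue and 0.48 ± 0.14 over wildtype (adjusted p = 0.000711 and 0.0297). B3gnt3, which extends core 1 chains, rose by 0.42 ± 0.09 (adjusted p = 0.00245) and B3gnt9 by 0.34 ± 0.10 (adjusted p = 0.013) over adjacent tissue, with neither called against wildtype. The brightest genes not called were B4galt1, the widely expressed galactosyltransferase of lactosamine, at 0.38 (adjusted p = 0.069), B4galt6 at -0.21 and B4galt3 at 0.01.

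Of 7 fucosyltransferases, 3 rose (42.9%) and 1 fell (14.3%) against adjacent tissue, beside 19.1% and 12.6% of all genes. Fut2 (transcript cluster 10563350), the secretor enzyme that puts fucose on terminal galactose to form the H antigen, ran from 12.21 to 13.07 in tumors with a median of 12.64, against 9.73, 10.44, 7.79, 9.08 and 7.88 in adjacent tissue and 12.63, 7.41 and 9.08 in wildtype duodenum. Adjacent arrays spread over more than 2 units, all below the tumors, and wildtype replicate 1 stood at the tumor median. The 2 adjacent arrays with acinar transcripts were the highest of their group. With the acinar-carrying normal arrays alone the rise over adjacent tissue was still called (adjusted p = 0.028). Fut2 rose by 3.69 ± 0.61 over adjacent tissue (12.9-fold, adjusted p = 0.000299) and by 2.94 ± 0.86 over wildtype (adjusted p = 0.0341). Without wildtype replicate 1 the Fut2 difference from wildtype was 4.40 ± 0.64 (adjusted p = 0.0003). Among mice whose ID starts with F, where replicate 1 is the only wildtype array, it was -0.17. The pit cell markers moved alongside, with 9 of 10 risen, and their mean was 11.27 to 13.18 in tumors, 6.93 to 8.66 in adjacent tissue and 12.60, 7.26 and 7.86 in wildtype duodenum. Their part in the Fut2 result was not tested.

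Fut9 and Fut4 both add the fucose of Lewis x, and they moved in opposite directions. Fut9 was low on the scale, at 5.87 to 7.21 in tumors, 5.21 to 5.53 in adjacent tissue and 5.44 to 5.95 in wildtype duodenum, and it rose by 1.13 ± 0.17 over adjacent tissue (adjusted p = 0.000125) and 0.80 ± 0.24 over wildtype (adjusted p = 0.0372). Fut4 ran from 7.68 to 9.99 in tumors with a median of 8.32, against 9.46, 9.43, 8.99, 9.45 and 9.78 in adjacent tissue and 8.60, 8.82 and 9.07 in wildtype duodenum. Tumor replicate 3 was the highest array of all while the other 5 tumors were below every normal array. The Fut4 log2 fold change was -0.98 ± 0.27 over adjacent tissue (adjusted p = 0.0126) and -0.39 ± 0.39 over wildtype (adjusted p = 0.591). Fut11 rose by 0.63 ± 0.12 (adjusted p = 0.000991), but its second row on the array ran the other way, at a mean of 6.66 in tumors, 6.97 in adjacent tissue and 7.35 in wildtype duodenum. Fut8, the core fucosyltransferase of N-glycans, Fut7 and Fut10 were not called, with log2 fold changes of 0.04, 0.00 and 0.04.

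Sialylation, the largest role with 20 genes, had 9 risen (45%) and 3 fallen (15%) against adjacent tissue, beside 19.1% and 12.6% of all genes. It had 3 risen (15%) and 2 fallen (10%) against wildtype, beside 9.65% and 4.48% of all genes. St8sia6 (transcript cluster 10480238), which adds sialic acid to sialic acid on O-glycans, ran from 10.70 to 11.94 in tumors with a median of 11.31, against 8.0, 7.44, 7.46, 7.38 and 7.88 in adjacent tissue and 10.12, 7.28 and 7.20 in wildtype duodenum. Tumors cleared every normal array, including wildtype replicate 1. St8sia6 rose by 3.66 ± 0.35 over adjacent tissue (12.7-fold, adjusted p = 3.81e-06) and by 3.1 ± 0.50 over wildtype (adjusted p = 0.0015). St6galnac6, which sialylates gangliosides and the disialyl Lewis a chain of gut epithelium, ran from 9.07 to 11.05 in tumors with a median of 9.89, against 8.06, 8.08, 8.01, 7.86 and 8.11 in adjacent tissue and 10.08, 8.17 and 7.92 in wildtype duodenum. The tumors were spread out above a tight adjacent group, and wildtype replicate 1 fell among them. The St6galnac6 log2 fold change was 1.95 ± 0.33 over adjacent tissue (adjusted p = 0.000359) and 1.30 ± 0.47 over wildtype (adjusted p = 0.0805). St3gal3, which makes sialyl Lewis a precursors, ran from 10.38 to 10.78 in tumors with a median of 10.51, against 8.90, 9.72, 8.73, 8.55 and 8.99 in adjacent tissue and 10.03, 8.58 and 8.56 in wildtype duodenum. Groups did not overlap, and St3gal3 rose by 1.56 ± 0.21 and 1.48 ± 0.30 over adjacent and wildtype tissue (adjusted p = 6.4e-05 and 0.00551).

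Smaller increases over adjacent tissue were found for St3gal5, the GM3 synthase (0.94 ± 0.18), St3gal6, which sialylates lactosamine (0.70 ± 0.15), St6galnac2, which sialylates core 1 (0.53 ± 0.11), St8sia3 (0.45 ± 0.12), St6gal2 (0.38 ± 0.12) and St8sia5 (0.25 ± 0.09). Their adjusted p-values in the limma fit ran from 0.000757 to 0.0428, and among these 6 only St3gal5 was also called against wildtype, at 0.86 ± 0.25 (adjusted p = 0.0321). The 3 decreases were in St6gal1, St8sia4 and St3gal1. St6gal1, the main sialyltransferase of N-glycan ends, ran from 7.39 to 8.27 in tumors with a median of 7.85, against 8.68, 8.34, 8.80, 8.40 and 8.82 in adjacent tissue and 8.41, 8.54 and 8.36 in wildtype duodenum. No tumor reached the lowest normal array. St6gal1 fell by 0.74 ± 0.12 over adjacent tissue and by 0.57 ± 0.16 over wildtype (adjusted p = 0.00018 and 0.0316).

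St8sia4, a polysialic acid synthase, ran from 6.52 to 6.83 in tumors with a median of 6.77, against 7.40, 7.13, 7.45, 7.33 and 7.49 in adjacent tissue and 7.04, 7.33 and 6.92 in wildtype duodenum. The tumors formed the lowest group with no overlap. St8sia4 fell by 0.63 ± 0.08 and 0.36 ± 0.11 over adjacent and wildtype tissue (adjusted p = 3.48e-05 and 0.0483). Markers of T and NK cells moved in the same direction, with a mean of 7.04 to 8.14 in tumors, 9.29 to 9.68 in adjacent tissue and 8.55, 9.51 and 8.89 in wildtype duodenum, and their part in the St8sia4 result was not tested. St3gal1, which sialylates core 1 and so ends it, ran from 8.04 to 8.65 in tumors with a median of 8.38, against 9.06, 9.22, 9.03, 9.48 and 8.31 in adjacent tissue and 8.63, 9.11 and 8.47 in wildtype duodenum. Adjacent replicate 5 was inside the tumor range, and St3gal1 fell by 0.66 ± 0.15 over adjacent tissue (adjusted p = 0.00354). Its second row was level, at a mean of 7.46 in tumors, 7.41 in adjacent tissue and 7.45 in wildtype duodenum. St3gal4, St3gal2 and St6galnac4 were the brightest not called, with log2 fold changes of 0.07, -0.05 and -0.08.

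**Figure D3:**
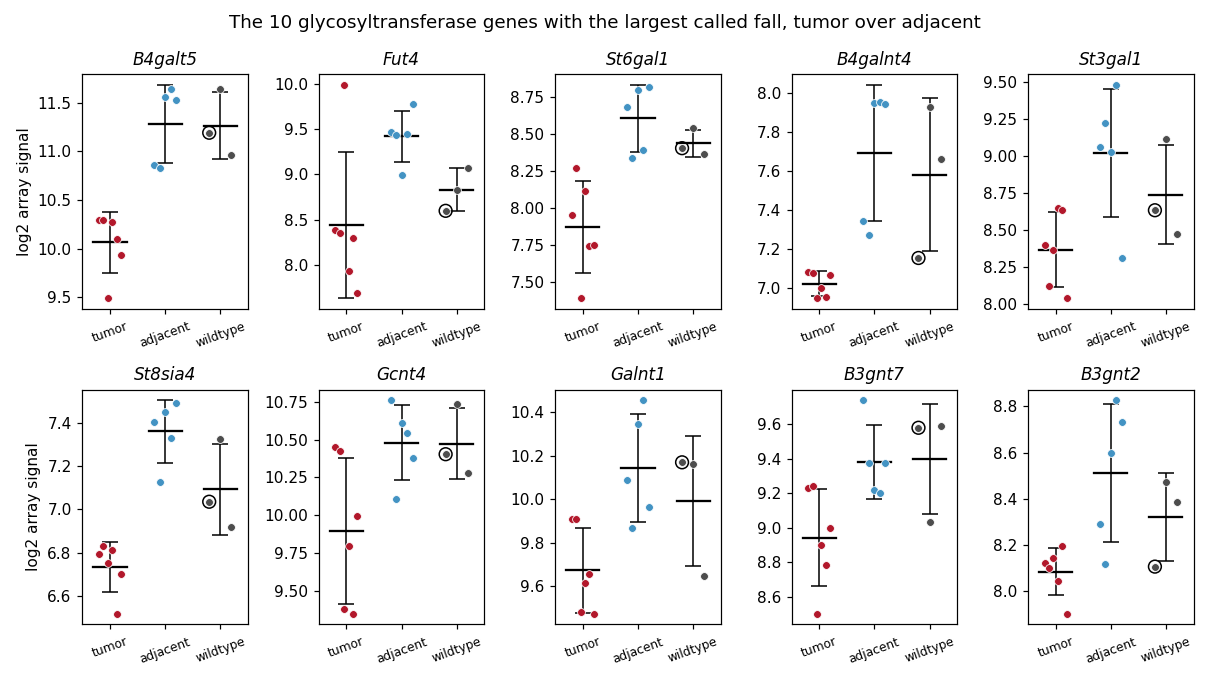
Log2 signal on each array for the 10 genes with the largest fall in tumors over adjacent tissue among those called, which leaves out Chst2 at -0.93 (not called), with tumors left, adjacent tissue in the middle and wildtype right. Points are arrays, thick bars are means, thin bars are SDs and wildtype replicate 1 is circled. For B4galt5, St6gal1, B4galnt4 and St8sia4 all tumors lie below all normal arrays, and for Fut4 a single tumor, at 9.99, lies above them.

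Of the 14 Chst sulfotransferases, 2 rose and 1 fell against adjacent tissue, with a median of -0.01. These shares of 14.3% and 7.14% were below the 19.1% and 12.6% of all genes. Chst4, which sulfates N-acetylglucosamine on mucin-type chains and on L-selectin ligands, ran from 10.68 to 11.38 in tumors with a median of 11.03, against 10.36, 10.44, 9.93, 9.98 and 9.65 in adjacent tissue and 10.11, 9.57 and 10.67 in wildtype duodenum. Wildtype replicate 3 came nearest to the tumors without reaching them. Chst4 rose by 0.93 ± 0.18 and 0.90 ± 0.25 over adjacent and wildtype tissue (adjusted p = 0.000944 and 0.0264). Chst8, which sulfates N-acetylgalactosamine on pituitary hormones, rose by 0.28 ± 0.10 and Chst11, a chondroitin sulfotransferase, fell by 0.20 ± 0.07 over adjacent tissue (adjusted p = 0.0382 and 0.0393). Chst12, Chst15 and Chst2 were the brightest not called, with log2 fold changes of -0.26, -0.02 and -0.93.

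Against wildtype duodenum, 17 of the 89 genes rose and 4 fell, beside a background of 9.65% and 4.48% of all genes. All 17 were among the 29 that rose over adjacent tissue, and 28 of those 29 had higher means in tumors than in wildtype. Of the 12 that fell, B4galt5, St6gal1 and St8sia4 fell against wildtype too, and all 12 had lower means. Both comparisons use the same tumor arrays, so these overlaps are not separate support. At 2-fold or more 11 rose and 1 fell, beside 2.2% and 1.7% of all genes. Groups did not overlap for 19 genes, against 13.6% of all genes, with 12 higher in tumors (background 8.53%) and 7 lower (background 5.04%). Chst9 was called against wildtype alone, at 4.13 to 4.44 in tumors, 4.13 to 4.38 in adjacent tissue and 4.50, 4.78 and 4.69 in wildtype duodenum. The Chst9 log2 fold change over wildtype was -0.40 ± 0.09 (adjusted p = 0.0127), on the lowest mean signal of any of the 89.

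Wildtype replicate 1 stood apart from the rest of its group for most risen genes. That array was above both other wildtype arrays for 24 of the 29 risen genes, for 39 of all 89 and for 38% of all genes, and it reached or passed the lowest tumor for 17 of the 29. In 25 of the 29 the other 2 wildtype arrays lay below all tumors. Without wildtype replicate 1, 25 of the 89 genes rose over wildtype, beside 15.6% of all genes. Without replicate 2 the count was 5, beside 3.04% of all genes, and without replicate 3 it was 7, beside 3.14%, so the counts over all genes moved in the same way. The part of its acinar and pit cell transcripts in these values was not tested.

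Between adjacent tissue and wildtype duodenum limma called 0 of the 89 genes and 0.0% of all genes. Lrig1 was not called either, although all its adjacent arrays lay below all wildtype arrays. A missing call in this comparison therefore does not show equal levels. At an unadjusted p below 0.05 the counts were 5 of 89 and 559 of 19938 genes (2.8%), and limma with array weights called 7 of the 89 as fallen and 0 as risen, beside 6.93% and 1.55% of all genes. Groups did not overlap for 3 genes, B3gnt4, Chst9 and St6galnac5, against 2.12% of all genes, and all 3 were lower in adjacent tissue (background 1.17%, and 0.948% for higher). The largest difference belonged to St3gal4, at -1.62 ± 0.98 on the log2 scale (adjusted p = 0.998 in limma). Its adjacent replicates 1 and 3, at 8.47 and 8.15, were far below the other adjacent arrays. A4gnt followed at -1.60 ± 0.80, with wildtype replicate 1 at 11.07 and the other wildtype arrays at 6.56 and 7.07.

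The substrates of these enzymes come from sugar nucleotide synthesis and Golgi transporters. Among 21 genes of donor supply, 8 rose and 2 fell against adjacent tissue, with a median of 0.08. These shares of 38.1% and 9.52% stand beside 19.1% and 12.6% of all genes. Gne, the entry enzyme of sialic acid synthesis, ran from 11.67 to 12.77 in tumors with a median of 12.03, against 10.44, 10.47, 10.62, 10.64 and 10.40 in adjacent tissue and 11.38, 10.65 and 10.21 in wildtype duodenum. Gne rose by 1.65 ± 0.18 over adjacent tissue (adjusted p = 8.45e-06), the largest rise of the list and with no overlap with normal arrays. Gfpt1, which opens hexosamine synthesis, rose by 1.18 ± 0.15, Gmds, the entry to GDP-fucose, by 1.14 ± 0.10, and Nans, a later step to sialic acid, by 1.08 ± 0.10 (adjusted p = 2.83e-05, 2.8e-06 and 2.73e-06). Cmas, which activates sialic acid, rose by 0.47 ± 0.10 (adjusted p = 0.00216).

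Among 13 Golgi transporters, 6 rose (46.2%) and 4 fell (30.8%) against adjacent tissue, with a median of 0.37. Over all genes 19.1% rose and 12.6% fell. Slc35a1, the CMP-sialic acid carrier, ran from 9.08 to 10.14 in tumors with a median of 9.35, against 8.11, 7.49, 8.03, 7.97 and 7.76 in adjacent tissue and 8.87, 7.57 and 7.55 in wildtype duodenum. Slc35a1 rose by 1.64 ± 0.21 (adjusted p = 4.22e-05) and the GDP-fucose carrier Slc35c1 by 0.96 ± 0.09 (adjusted p = 4.69e-06). Slc35c2, a relative of the fucose carrier, fell by 1.28 ± 0.11 over adjacent tissue and by 1.22 ± 0.15 over wildtype (adjusted p = 1.5e-06 and 0.000333). Against wildtype the donor list had 6 risen and 0 fallen, and the transporter list 4 risen and 1 fallen. The background there was 9.65% risen and 4.48% fallen.

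Mucin backbones, the proteins these enzymes decorate, had 7 of 12 risen (58.3%) and 2 fallen (16.7%) over adjacent tissue, with a median of 1.21. Over all genes 19.1% rose and 12.6% fell. Muc6, the gland mucin that carries the A4gnt cap, ran from 13.49 to 14.23 in tumors with a median of 13.92, against 9.68, 7.07, 6.88, 6.55 and 7.76 in adjacent tissue and 13.53, 7.14 and 8.40 in wildtype duodenum. Muc6 rose by 6.30 ± 0.74 over adjacent tissue (adjusted p = 1.66e-05), and wildtype replicate 1 again lay within the tumors. Mucl3, a mucin-like gene, rose by 6.80 ± 0.73 (adjusted p = 7.97e-06), the membrane mucin Muc1 by 3.93 ± 0.93 (adjusted p = 0.0043) and the stomach surface mucin Muc5ac by 3.45 ± 1.10 (adjusted p = 0.0265). Muc5ac was uneven across tumors, at 7.27 to 13.93 with a median of 8.79, and it was highest in tumor replicates 3 and 5, where A4gnt was highest too. Muc3 and Muc13, membrane mucins of the intestine, fell by 0.54 ± 0.20 and 0.49 ± 0.10 (adjusted p = 0.0481 and 0.00161). Muc2, the goblet cell mucin, was not called at -0.47 ± 0.21 (adjusted p = 0.112). Goblet markers as a list had 5 of 9 risen and 1 fallen, and enterocyte markers had 9 of 10 fallen, with means of 10.64 to 10.99 in tumors, 12.87 to 13.67 in adjacent tissue and 12.20 to 13.56 in wildtype duodenum.

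**Figure D4:**
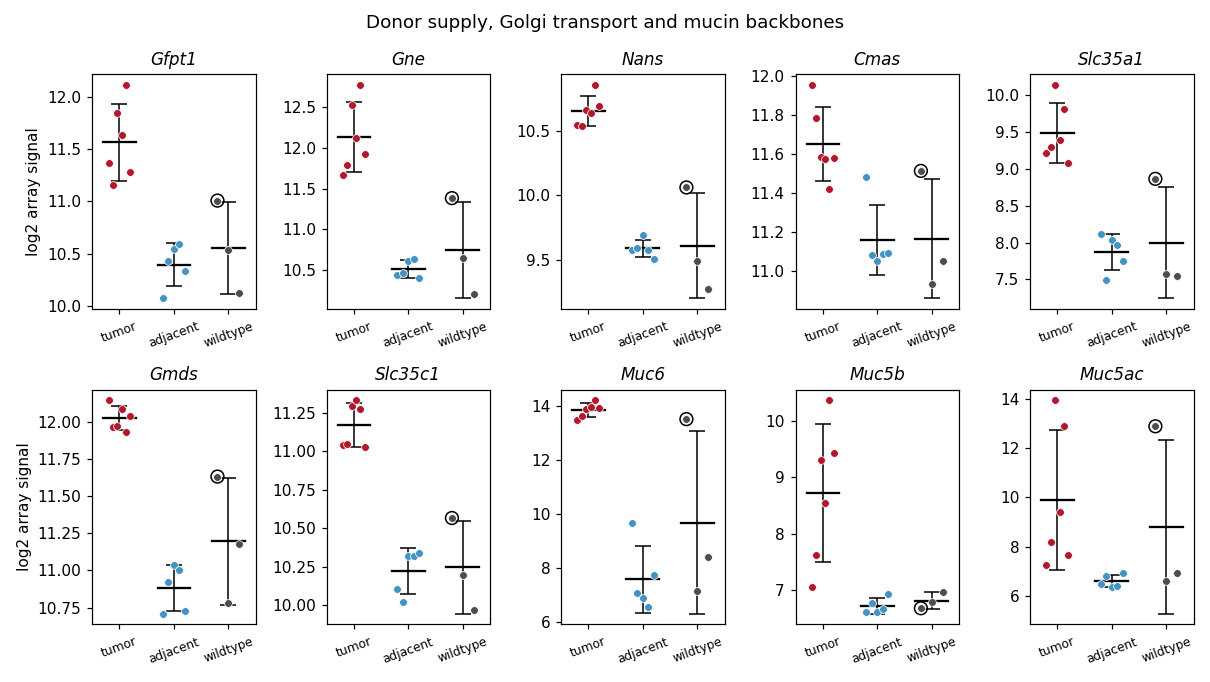
Log2 signal on each array for genes of sugar nucleotide supply, Golgi transport and mucin backbones, with tumors left, adjacent tissue in the middle and wildtype right. Points are arrays, thick bars are means, thin bars are SDs and wildtype replicate 1 is circled. Gne and Slc35a1 are above all normal arrays in every tumor, while Muc5ac spreads from 7.27 to 13.93 among tumors.

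N-glycan branching enzymes had 4 of 13 risen (30.8%) and 3 fallen (23.1%) against adjacent tissue, with a median of -0.03. Other O-glycosyltransferases had 9 of 16 risen (56.25%) and 3 fallen (18.75%), with a median of 0.26. Over all genes 19.1% rose and 12.6% fell. Mgat4c, a branching enzyme, rose by 1.95 ± 0.35 (adjusted p = 0.000624) and Mgat4b by 0.60 ± 0.08 (adjusted p = 6.34e-05). Mgat3, which adds the bisecting sugar, and Man1a, a trimming mannosidase, fell by 0.41 ± 0.14 and 0.40 ± 0.10 (adjusted p = 0.0397 and 0.00765). Of the O-linked enzymes outside the mucin type, Pomgnt1 of the O-mannose pathway rose by 0.75 ± 0.12 and Pofut2, which fucosylates thrombospondin repeats, by 0.73 ± 0.14 (adjusted p = 0.000207 and 0.00073). Gxylt1, which adds xylose to Notch repeats, rose by 0.72 ± 0.14 (adjusted p = 0.000979). B3glct, which extends that fucose, fell by 0.55 ± 0.08 (adjusted p = 0.000108), in the opposite direction to Pofut2.

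Several genes were uneven between mice in ways that the group means hide. They were picked after their values were seen, so no test is given. St3gal4, which sialylates galactose ends, ran from 9.82 to 11.78 in tumors with a median of 11.17, against 8.47, 12.83, 8.15, 12.92 and 12.59 in adjacent tissue and 12.68, 12.85 and 12.42 in wildtype duodenum. Adjacent replicates 1 and 3 were far below the other normal arrays, and all tumors were below all wildtype arrays. St6galnac1, the sialyl Tn enzyme, was 8.70 and 7.59 in tumor replicates 2 and 4 and 5.98 to 6.58 in the other 4 tumors, and it was 8.28 and 7.53 in adjacent replicates 1 and 3, taken from the same 2 mice, against 6.06, 6.38 and 6.1 in the other adjacent arrays. These 2 mice were therefore high in both tissues for St6galnac1, and their adjacent tissue was low for St3gal4. B4galt4 ran from 8.67 to 10.27 in tumors, against 7.96, 9.67, 9.38, 9.49 and 8.62 in adjacent tissue and 9.77, 9.12 and 9.39 in wildtype duodenum, and the wildtype group was the narrowest. The spread among tumors (highest minus lowest) was 2.73 for St6galnac1, 2.61 for B3galt5, 2.30 for Fut4 and 2.28 for A4gnt, against a median of 0.59 over the 89 genes and 0.50 over all genes.

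**Figure D5:**
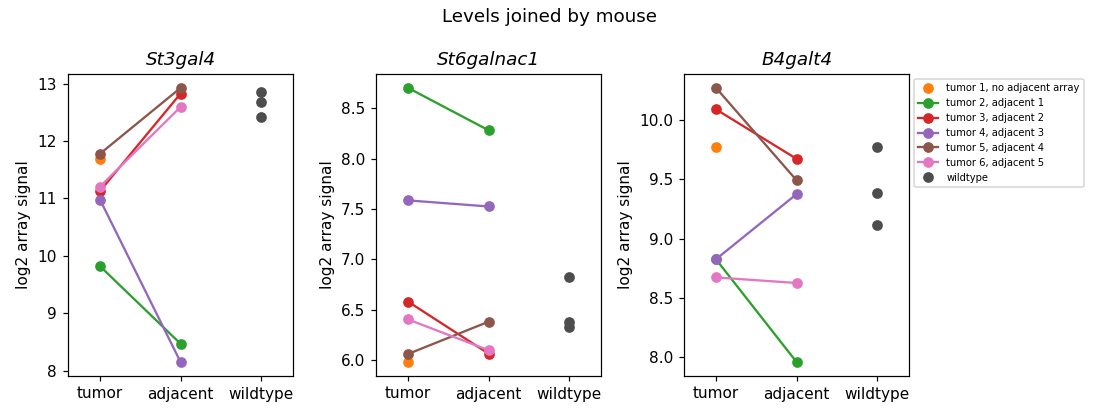
Log2 signal of St3gal4, St6galnac1 and B4galt4, with a line from each mouse's tumor to its own adjacent tissue and with wildtype arrays at the right. For St6galnac1 the same 2 mice are high in both tissues, and for St3gal4 their adjacent tissue lies at 8.47 and 8.15, below the other 3 adjacent arrays at 12.59 to 12.92.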

How the data were processed

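Total RNA from 14 samples of 9 mice was read on Affymetrix Mouse Gene ST arrays. The deposited values are log2 signal per transcript cluster (2.87 to 14.8). The submitters' processing notes name Affymetrix Expression Console 1.1 and the mm9 build. How background and array differences were handled is not stated there. Array medians were 7.11 to 7.29, so no scaling was added. No detection calls accompany the values, and the number of arrays limits the precision.

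Symbols came from the platform annotation, updated by gene identifier through RefSeq names of GRCm38.p6: 21789 of 35556 rows had 1 symbol (21698 matched, 91 kept as given), 1621 several and 12146 none. The brightest row was used for the 999 genes with several rows, which left 19938 genes. These were fitted with limma 3.58.1 in R 4.3.3 (group means over all 14 arrays, mouse as a random block with a correlation of 0.334, moderated two-sided tests, Benjamini-Hochberg adjustment over all genes, threshold 0.05). The fit was tested on simulated data. Tumors were paired with adjacent samples by the mouse ID in their labels. The 5 mice with both tissues enter as pairs, all groups share one estimate of spread, and mice in a group are separate animals.

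Values per array are given for A4gnt, Galnt12, the 10 genes with the largest called rise and the 10 with the largest called fall over adjacent tissue, and the largest against wildtype. For each role the brightest 3 genes not called are named, and up to 4 called genes of each pathway list, with Cmas, Muc2, Muc3, Muc13 and members called beyond the rule added after their values were seen. The members and lists were chosen with earlier results of these data known. Alternatives were other scalings, filters, blocks, array weights, subsets by acinar transcripts or by the letter that starts a mouse ID, whose meaning the labels do not give, and leaving out each array.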

Additional observations from a re-analysis of the deposited data

Results flagged for a closer look

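Among 42 groups of tumor or adjacent arrays, examined for the 21 genes chosen by the naming rule, 2 held an array far from the others, and chance flags about 1 in 20 such groups. Both arrays were tumor replicate 3. Galnt7 was 12.44 there, against 11.47 to 11.73 in the other 5 tumors. Fut4 was 9.99 there, against 7.68 to 8.39 in the other 5 tumors.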

How the results depend on the processing

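Against adjacent tissue the main counts were 29 risen and 12 fallen. They were 16 and 1 with mice of ID letter F alone (5.54% and 3.08% of all genes), 14 and 5 with the acinar-carrying normal arrays alone (5.97% and 4.97%), and 14 and 1 at 2-fold or more (3.3% and 3.07%). Leaving out each array gave 25 to 30 risen and 9 to 15 fallen, beside 15.8% to 19.8% and 10.4% to 14.1% of all genes. Against wildtype the main counts were 17 and 4. They were 11 risen with only the 2 groups compared (6.17% of all genes), 31 and 19 with array weights (25.8% and 22%), and 0 and 0 with letter F alone, which has 1 wildtype array and called 0.0702% of all genes. They were 3 and 1 with the acinar-carrying normal arrays alone (1.26% and 1.27%) and 11 and 1 at 2-fold or more (2.2% and 1.7%). Among the brighter genes alone 2 fell (9.08% of those genes). Leaving out each array gave 5 (without wildtype replicate 2) to 25 (without wildtype replicate 1) risen, beside 3.04% to 15.6% of all genes. It gave 1 to 6 fallen, beside 1.68% to 7.14%, with 2 fallen without tumor replicate 5 (3.51%). Between adjacent tissue and wildtype 7 fell with array weights (6.93% of all genes) and 1 with letter F alone (0.291%), and leaving out each array gave 0 to 0. The mouse block is the pairing by animal. With no replicate block 25 rose and 9 fell against adjacent tissue (14.3% and 9.82% of all genes). In that setting 17 rose and 4 fell against wildtype (9.9% and 4.67% of all genes). With letter F alone A4gnt against wildtype was 0.12, and Fut2 turned to -0.17. Fut11 lost its call against adjacent tissue when its rows were averaged (adjusted p = 0.367), since they run in opposite directions. For the other differences the cause was not tested. B3galt6 and Fut9 fell outside the brighter genes and were not tested in that alternative. Counting only the alternatives that tested a gene, 13 genes were called against adjacent tissue under every one: A4gnt, B3galt6, C1galt1, Fut2, Fut9, Galnt12, Galnt3, Galnt4, Galnt5, Galnt7, Gcnt3, St3gal3 and St8sia6. Against wildtype 0 were, since letter F alone left 0 calls. Signal near the array's low end, as for Chst9 and Fut9, limits what differences can be seen.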

Other observations

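Adjacent replicate 2 stood apart from its group for some genes of sulfation and sialylation. Chst2, which sulfates N-acetylglucosamine, was 11.57 there, against 8.43, 7.86, 7.63 and 8.13 in the other adjacent arrays, 7.67 to 8.02 in tumors and 9.79, 7.86 and 8.61 in wildtype duodenum. Chst2 also followed the acinar transcripts, at 8.43 to 11.57 in the 4 normal arrays that carry them and 7.63 to 8.13 in the other 4. St6galnac4, which sialylates core 1 chains, was 9.14 in adjacent replicate 2, against 7.14 to 7.49 in the other adjacent arrays. The membrane mucin Muc1 was 12.12 in the same array and 5.81 to 8.11 in the other adjacent arrays. These values were picked after they were seen and were not tested.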
